A study of Mus musculus with 12 samples.

Results

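The genes described here are 10 imprinted genes with known roles in growth, listed by symbol with earlier results of these data known: H19, Igf2, Meg3, Dlk1, Peg3, Plagl1, Grb10, Cdkn1c, Mest and Ndn. They were followed over the estrous cycle in whole mouse uterus, among 35896 genes with a value. Of the 10, 8 had values, and H19 and Meg3 were not analysed here because no transcript identifier in the tables matched their annotated transcripts. Dlk1 was too low to be tested, which left 7 genes in the tests across 12052 genes. The animals were wild-type Swiss Webster females, an outbred stock, 8 to 12 weeks old and untreated as far as the labels say. There were 4 groups, proestrus, estrus, metestrus and diestrus, of 3 uteri each, and all of them shared strain, genotype and age range. RNA of the whole organ was read by 3' TagSeq, which counts fragments from the 3' end of polyadenylated transcripts. How the stage was determined is not given in the sources used here.

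Imprinted genes are expressed mainly from the copy inherited from a particular parent, under DNA methylation marks laid down in the germ line. Many paternally expressed members promote fetal and placental growth, such as the growth factor Igf2, and several maternally expressed ones restrain it, such as the cyclin-dependent kinase inhibitor Cdkn1c and the receptor adaptor Grb10. In the uterus, IGF signalling and CDK inhibitors take part in the cycles of proliferation and differentiation that estrogen and progesterone drive. The counts do not separate the parental copies, so nothing here bears on imprinting itself.

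Values are estimated counts summed per gene and scaled by library size and TMM factor to CPM. Libraries held 1652841 to 2200563 estimated counts. For a library with 0 counts, 3 counts were taken as an approximate upper limit, not a hard maximum, and stood for 1.37 to 1.89 CPM. Counting limits the precision of the lower members: Igf2 had 229 counts over all 12 libraries, Peg3 275, Mest 314, Plagl1 434, Ndn 795, Grb10 1013 and Cdkn1c 1927. The TagSeq protocol in the labels names no molecular identifiers, so such limits cover counting error only. Metestrus was the least uniform stage, with correlations of log2 CPM between its libraries of 0.897 to 0.910 against 0.939 to 0.957 within the others. In metestrus replicate 5 the summed level of 12 stroma markers was 7355 CPM, against 13987 and 15675 CPM in the other metestrus uteri. Results that rest on that library are therefore given with and without it. Replicates 6 and 7 also differed from each other. Chi-square per degree of freedom was 10.6 between them, 10.7 between 5 and 6 and 15.6 between 5 and 7. In metestrus against estrus, Igf2, Peg3 and Mest were called without replicate 5, and no other single omission called them. Markers of stroma, smooth muscle and epithelium were detected in every library. Of the markers of neighbouring or foreign tissues, the oocyte gene Zp3 and the skeletal muscle gene Myh4 had 0 counts in all libraries. Other markers of these tissues were detected, and their sums are given with the cell type markers below.

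Over the 4 stages, 4 of the 7 tested genes changed, namely Grb10, Cdkn1c, Ndn and Mest (edgeR quasi-likelihood F test, adjusted p under 0.05, adjustment by Benjamini-Hochberg over all 12052 genes). Of all genes tested, 23.2% passed the same test. Grb10, Ndn and Mest had their lowest stage mean in estrus and their highest in diestrus. Cdkn1c was lowest in proestrus instead, and high in estrus and diestrus. Igf2, Peg3 and Plagl1 did not pass the test.

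**Figure D1:**
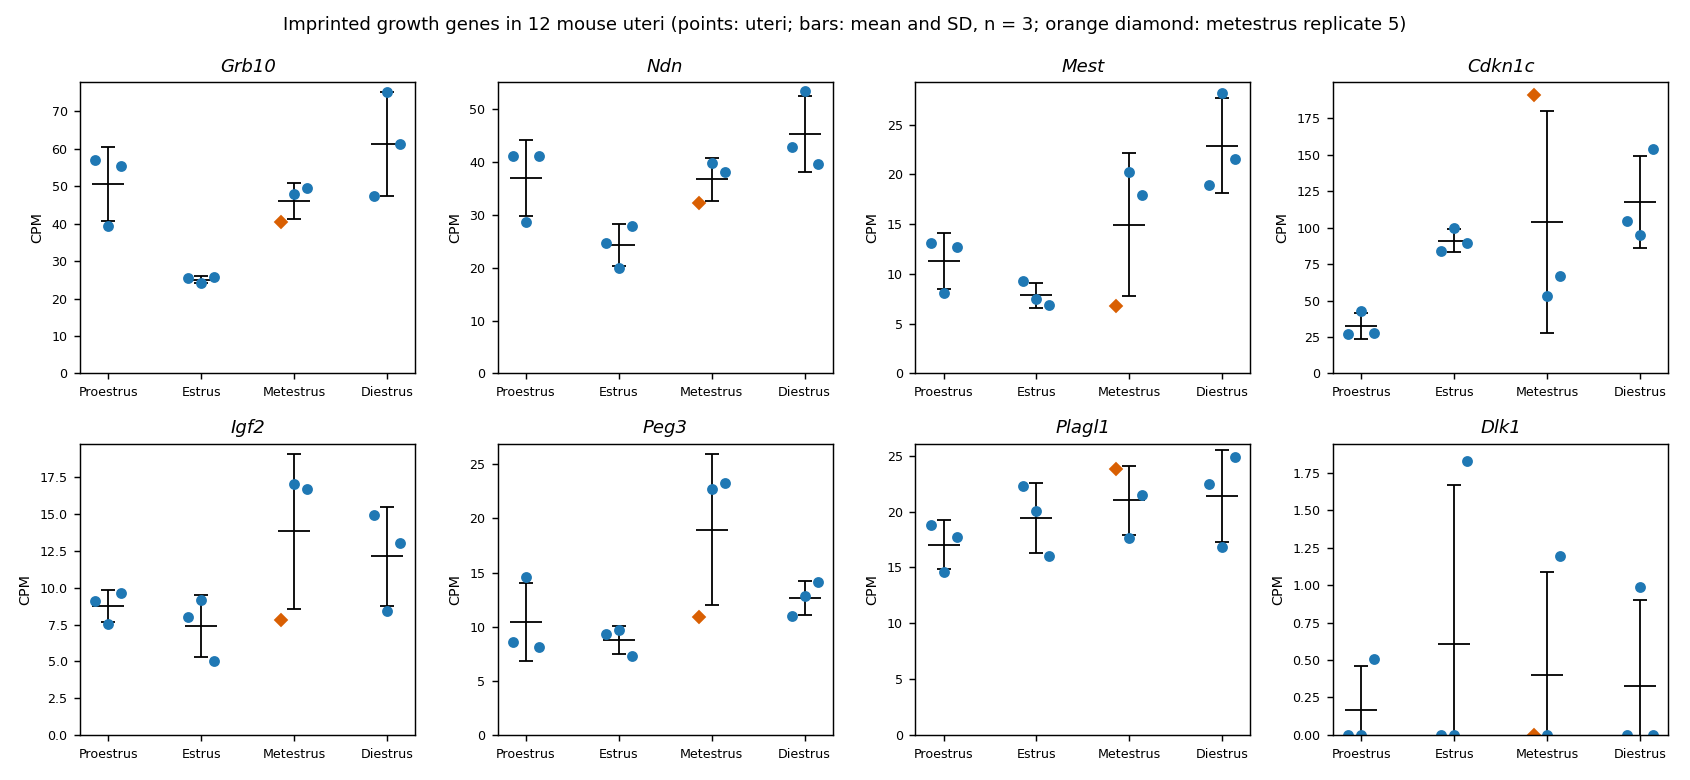
CPM of the 8 measured genes in each uterus (points) by stage, with the mean and SD of 3 uteri as bars and metestrus replicate 5 as an orange diamond. The 3 estrus points of Grb10 lie between 24.0 and 25.6 CPM, below all other points of that gene, and the 3 proestrus points of Cdkn1c lie below all its others.

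The promoters of Grb10, Mest and Ndn are shown because these genes moved together, and that of Plagl1, which did not pass the test, is shown beside them. The sequences are RefSeq promoters of build GRCm38.p6, 250 bases before to 50 bases after an annotated start, read 5′ to 3′ along the gene's strand. The table held entries for 7 of the 8 measured members (Cdkn1c was not among them), and some members have several starts there. Capitals mark TGCCGC, the hexamer bound by the imprint-protecting zinc finger protein ZFP57 when methylated, or its reverse complement GCGGCA.
Grb10 (chr11:12037371-12037670, minus strand): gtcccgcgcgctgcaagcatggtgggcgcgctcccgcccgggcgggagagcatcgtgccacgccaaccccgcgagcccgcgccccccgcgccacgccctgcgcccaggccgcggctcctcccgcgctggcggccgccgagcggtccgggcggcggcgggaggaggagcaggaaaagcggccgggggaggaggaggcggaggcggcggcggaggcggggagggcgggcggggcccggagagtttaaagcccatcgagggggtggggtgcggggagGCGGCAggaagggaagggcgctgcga
Mest (chr6:30737800-30738099, plus strand): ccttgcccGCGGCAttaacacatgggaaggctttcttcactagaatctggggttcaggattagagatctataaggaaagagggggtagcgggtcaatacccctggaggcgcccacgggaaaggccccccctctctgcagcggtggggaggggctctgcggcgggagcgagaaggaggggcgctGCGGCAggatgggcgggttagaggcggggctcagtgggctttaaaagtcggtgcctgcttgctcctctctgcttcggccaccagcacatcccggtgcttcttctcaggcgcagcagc
Ndn (chr7:62348027-62348326, plus strand): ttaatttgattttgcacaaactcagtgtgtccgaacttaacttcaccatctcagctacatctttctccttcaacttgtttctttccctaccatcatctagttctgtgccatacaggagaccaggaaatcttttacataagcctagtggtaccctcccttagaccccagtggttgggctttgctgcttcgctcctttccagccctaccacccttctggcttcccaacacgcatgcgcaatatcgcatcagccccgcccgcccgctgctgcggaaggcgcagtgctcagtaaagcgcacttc
Plagl1 (chr10:13090582-13090881, plus strand): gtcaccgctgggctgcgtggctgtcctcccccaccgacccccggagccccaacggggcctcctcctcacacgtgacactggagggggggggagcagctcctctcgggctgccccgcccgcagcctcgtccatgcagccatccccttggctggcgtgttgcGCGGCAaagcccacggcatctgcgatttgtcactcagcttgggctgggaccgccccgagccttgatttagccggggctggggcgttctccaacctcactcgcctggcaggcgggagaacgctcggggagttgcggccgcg

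TGCCGC or its complement occurred once in the Grb10 window, 2 times in the Mest window, once in the Plagl1 window and not in the Ndn window. Of all 32851 promoters of 300 bases in the table, 11.6% held it. The estrogen response element (GGTCA, any 3 bases, TGACC) was searched on both strands as well and was in none of the members' windows, nor was GCCATCTT, the core bound by YY1, a factor with sites at the Peg3 locus. These letters were found in 0.0700% and 2.75% of all promoters. The Grb10 window was the richest in CG pairs, with 45, against 26 for Plagl1, 17 for Mest, 11 for Ndn and a median of 7 over all promoters. Other annotated starts differ: the Grb10 window at chr11:12027922-12028221 and the Mest window at chr6:30733256-30733555 held 0 matches of the hexamer, with 9 and 8 CG pairs. The matches of both genes thus belong to the starts shown and, for Mest, to a start 3 bases further on.

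Igf2 encodes the insulin-like growth factor that drives fetal growth; the annotated gene lies on chromosome 7, 142650766 to 142666816, minus strand (ENSMUSG00000048583, GRCm38). Its levels were 9.13, 7.55 and 9.64 CPM in proestrus replicates 1, 2 and 3, and 8.04, 9.15 and 5.04 CPM in estrus replicates 3, 4 and 5. They were 7.78, 17.0 and 16.7 CPM in metestrus replicates 5, 6 and 7, and 15.0, 8.40 and 13.02 CPM in diestrus replicates 3, 4 and 5. The highest values were in metestrus and diestrus, but both stages overlapped with proestrus and estrus. No difference passed the F test (edgeR adjusted p = 0.211), and the difference nearest to a call, metestrus against estrus, was 0.90 ± 0.37 on the log2 scale (SE; edgeR adjusted p = 0.154). Without metestrus replicate 5 that difference was 1.20 ± 0.35 and was called (edgeR adjusted p = 0.0411). Of the 31-base words in its transcripts, 61.9% also occur in other genes, chiefly the readthrough gene Gm49394, which had 0 counts.

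Dlk1 is a transmembrane ligand related to the Notch ligands that holds back differentiation, and it shares an imprinted cluster on chromosome 12 with Meg3. The gene (109452823 to 109463336, plus strand, ENSMUSG00000040856) had 0 counts in 8 of 12 libraries after rounding. The other libraries, 1 in each stage, held 1 count in proestrus replicate 3, 4 in estrus replicate 5, 2 in metestrus replicate 7 and 2 in diestrus replicate 4. Before rounding, proestrus replicate 2, estrus replicates 3 and 4, metestrus replicate 6 and diestrus replicate 5 held about 0.5 estimated counts each. The approximate limit of 3 counts stood for 1.496 to 1.89 CPM in those 8 libraries, so a difference between stages was not detectable at this depth.

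Grb10, an adaptor that binds the insulin and IGF1 receptors and dampens their signal, gave the clearest stage pattern of the set. It lies on chromosome 11, 11930508 to 12038683, minus strand (ENSMUSG00000020176), and 95.8% of its counts were on the transcript Grb10-203. Its levels were 57.0, 39.4 and 55.3 CPM in the 3 proestrus uteri and 25.4, 24.0 and 25.6 CPM in the 3 estrus uteri, in the order of their replicate numbers. The metestrus uteri had 40.5, 48.0 and 49.5 CPM, and the diestrus uteri 47.4, 75.1 and 61.1 CPM. All 3 estrus uteri lay below every uterus of the other stages, and those other stages overlapped with each other. Separation of stages was common among the 12052 genes tested. In 2180 of them all estrus uteri lay below all proestrus uteri. In 1336 they lay below all metestrus uteri and in 2482 below all diestrus uteri. Grb10 differed over the cycle (edgeR F test adjusted p = 0.00274), with a ratio of 2.45 between the diestrus and estrus means. From proestrus to estrus it fell by 1.01 ± 0.20 on the log2 scale (SE; edgeR adjusted p = 0.00474, lower in 3 of 3). From estrus to metestrus it rose by 0.87 ± 0.20 (edgeR adjusted p = 0.0211), a call lost without estrus replicate 3, 4 or 5 or metestrus replicate 6 (adjusted p up to 0.0684) and with counts scaled from TPM (0.118). Diestrus stood 1.29 ± 0.20 above estrus (edgeR adjusted p = 0.000592).

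Cdkn1c encodes p57, an inhibitor of cyclin-dependent kinases that holds cells out of the cycle, and its pattern was unlike that of Grb10. The gene is on chromosome 7, 143458339 to 143461050, minus strand (ENSMUSG00000037664). Proestrus replicates 1, 2 and 3 had 27.4, 43.1 and 27.9 CPM, and estrus replicates 3, 4 and 5 had 84.1, 99.5 and 89.3 CPM. Metestrus replicates 5, 6 and 7 had 191, 53.0 and 66.8 CPM, and diestrus replicates 3, 4 and 5 had 105, 94.9 and 154 CPM. Every proestrus uterus lay below every uterus of the other stages. Of the 12052 genes tested, 2518 were separated in this way from estrus, 1391 from metestrus and 1791 from diestrus. Estrus and diestrus overlapped, and metestrus spanned the whole of both because of its replicate 5. Cdkn1c differed over the cycle (edgeR F test adjusted p = 0.0183). It rose by 1.47 ± 0.40 on the log2 scale from proestrus to estrus (SE; edgeR adjusted p = 0.0235, higher in 3 of 3). From diestrus to proestrus it fell by 1.84 ± 0.40 (edgeR adjusted p = 0.0109). Both calls were lost without proestrus replicate 1 or 3, the first also without estrus replicate 4 or 5 (adjusted p up to 0.0914 and 0.0535). Metestrus stood 1.67 ± 0.40 above proestrus (edgeR adjusted p = 0.0341), a call lost without any of the 3 proestrus or 3 estrus uteri, metestrus replicate 5 or diestrus replicate 3 (adjusted p up to 0.129).

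Without metestrus replicate 5 the metestrus mean of Cdkn1c was 59.9 CPM in place of 104 ± 76.2 CPM (SD, n = 3), and the difference from proestrus was 0.87 ± 0.25, not called (edgeR adjusted p = 0.0572). The rise into estrus kept its size there, 1.47 ± 0.22 (edgeR adjusted p = 0.000629). Cdkn1c counts were divided by the authors' quantification between the coding transcript Cdkn1c-202, with 61.2%, and the retained-intron transcript Cdkn1c-204, with 38.8%. An antisense gene without a value here, Gm44732, overlaps 30.7% of the exonic bases of Cdkn1c, and since the use of strand is not given in the sources used here, reads of the pair cannot be told apart.

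**Figure D2:**
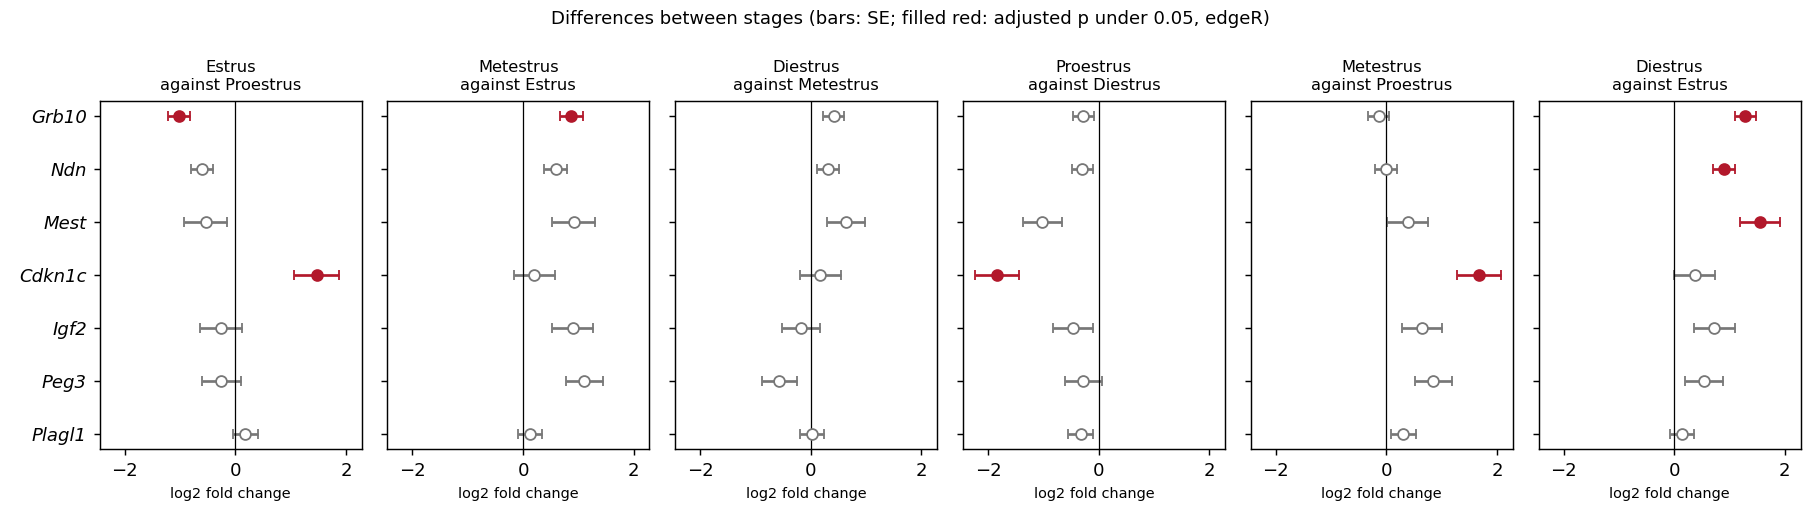
Log2 fold changes of the 7 tested genes between pairs of stages, with standard errors as bars. Grb10, Ndn and Mest lie above 0 in diestrus against estrus, at 1.29, 0.90 and 1.55, and Cdkn1c lies away from 0 in each comparison with proestrus.

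Mest, a paternally expressed gene for an enzyme of the alpha/beta hydrolase fold that is abundant in growing mesoderm and fat, followed Grb10. It lies on chromosome 6, 30723547 to 30748465, plus strand (ENSMUSG00000051855). Its levels were 13.1, 8.09 and 12.7 CPM in proestrus and 9.28, 7.44 and 6.87 CPM in estrus, in replicate order. Metestrus replicates 5, 6 and 7 had 6.74, 20.2 and 17.9 CPM, and diestrus replicates 3, 4 and 5 had 18.9, 28.2 and 21.5 CPM. The diestrus uteri lay above all uteri of proestrus and estrus, and metestrus replicate 5 was the lowest of all 12. Among the 12052 genes tested, diestrus lay wholly above proestrus in 1791 and wholly above estrus in 2482. Mest changed over the cycle (edgeR F test adjusted p = 0.0288) and stood 1.55 ± 0.36 higher in diestrus than in estrus on the log2 scale (SE; edgeR adjusted p = 0.00794, higher in 3 of 3). The F test call was lost without any of the 3 estrus uteri or without diestrus replicate 4 or 5 (adjusted p up to 0.0943), while the difference between diestrus and estrus was called in each of those fits (adjusted p up to 0.0377). Without metestrus replicate 5, Mest was also higher in metestrus than in estrus, by 1.28 ± 0.31 (edgeR adjusted p = 0.0175), and fell by 1.02 ± 0.26 from diestrus to proestrus (edgeR adjusted p = 0.0216). The level of Mest is uncertain, because 22.0% of its 31-base words occur in other genes, chiefly Copg2, which overlaps it on the opposite strand and had 652 counts. Copg2 itself did not pass the F test (edgeR adjusted p = 0.207).

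Ndn encodes necdin, a MAGE family protein that restrains proliferation in neurons and other cells. It lies on chromosome 7, 62346569 to 62350262, plus strand (ENSMUSG00000033585), and has a single annotated transcript that shared no 31-base word with another gene. Proestrus replicates 1, 2 and 3 had 41.1, 28.6 and 41.1 CPM, and estrus replicates 3, 4 and 5 had 24.7, 20.02 and 27.9 CPM. Metestrus had 32.2, 39.8 and 38.2 CPM and diestrus 42.9, 53.4 and 39.6 CPM. The 3 estrus uteri lay below all 9 others, closest to proestrus replicate 2. As given for Grb10, estrus lay wholly below proestrus in 2180 of the 12052 genes tested. It lay wholly below metestrus in 1336 and below diestrus in 2482. Ndn changed over the cycle (edgeR F test adjusted p = 0.0269) and was 0.90 ± 0.20 higher in diestrus than in estrus (log2, SE; edgeR adjusted p = 0.00577). The F test call was lost without estrus replicate 3 or 4 or diestrus replicate 4 (adjusted p up to 0.0924), and with counts scaled from TPM, whereas the call between diestrus and estrus held in every fit run. The drop from proestrus to estrus, -0.60 ± 0.20, missed the threshold (edgeR adjusted p = 0.0561). It was called in 4 of the 12 fits that each left out a sample, with the lowest edgeR adjusted p, 0.0315, without proestrus replicate 2, and also with library totals and in the fit to the 2 stages alone.

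Peg3, a paternally expressed zinc finger gene known for effects on body size and maternal behaviour, had its highest values in metestrus. It lies on chromosome 7, 6703892 to 6730431, minus strand (ENSMUSG00000002265). Its levels were 8.56, 14.6 and 8.12 CPM in proestrus and 9.28, 9.72 and 7.33 CPM in estrus, in replicate order. Metestrus replicates 5, 6 and 7 had 10.9, 22.7 and 23.3 CPM, and diestrus had 11.0, 12.9 and 14.1 CPM. Metestrus replicates 6 and 7 were the highest of all 12 uteri, while replicate 5 lay below every diestrus uterus. With all libraries Peg3 did not pass the F test (edgeR adjusted p = 0.0875), nor did metestrus against estrus (1.10 ± 0.34, log2 and SE; edgeR adjusted p = 0.0633). Without metestrus replicate 5 the F test was passed (edgeR adjusted p = 0.0150), and Peg3 was higher in metestrus than in estrus by 1.39 ± 0.30 (edgeR adjusted p = 0.0108) and than in proestrus by 1.14 ± 0.30 (edgeR adjusted p = 0.0412).

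Plagl1, a zinc finger transcription factor that arrests the cell cycle and acts on other imprinted genes, varied least. The gene is on chromosome 10, 13060504 to 13131694, plus strand (ENSMUSG00000019817). Its levels were 18.8, 14.6 and 17.8 CPM in proestrus, 22.3, 20.02 and 16.0 CPM in estrus, 23.9, 17.7 and 21.5 CPM in metestrus and 22.4, 16.8 and 24.9 CPM in diestrus. Every pair of stages overlapped, and the highest stage mean was 1.25 times the lowest. The F test was not passed (edgeR adjusted p = 0.612), and the difference farthest from 0 between any pair of stages was -0.32 ± 0.22 on the log2 scale from diestrus to proestrus (SE; edgeR adjusted p = 0.448).

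Across the pairs of stages, the share of the 7 genes that changed can be read against all genes tested. From proestrus to estrus 2 members changed, Grb10 down and Cdkn1c up, where 17.1% of all genes passed, 9.67% upwards and 7.46% downwards. From estrus to metestrus Grb10 alone was called, upwards (7.56% of all genes passed, 2.83% upwards). Without metestrus replicate 5, 4 members were called: Peg3, Grb10, Igf2 and Mest. The share of all genes in that fit is not given here, so these 4 cannot be read against it. Calls rose there in other lists too, from 6 to 12 for proliferation genes and from 4 to 7 for CDK inhibitors, cyclins and kinases. For Notch signalling they stayed at 0. Between metestrus and diestrus 0 members were called by edgeR (0.224% of all genes), with Grb10 at an unadjusted p under 0.05, and 0 were called by DESeq2 or limma-voom, with 0 and 1 members at an unadjusted p under 0.05. From diestrus to proestrus Cdkn1c was called as lower in proestrus (8.53% of all genes passed, 3.91% in that direction), and it was called as higher in metestrus than in proestrus (4.31% and 2.49% of all genes), the latter replaced by Peg3 without metestrus replicate 5. Between diestrus and estrus 3 members were called, all of them higher in diestrus, where 22.8% of all genes passed, 9.72% as higher and 13% as lower in diestrus. The median log2 difference over the 7 genes was 0.72 in that comparison, beside 0.00068 over all genes tested, and -0.26 from proestrus to estrus, beside 0.02.

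The order of levels between members was read from the deposited TPM, which are per transcript length. On that scale Cdkn1c was highest, with a mean of 151 TPM over the 12 uteri. Ndn (9.73 TPM), Grb10 (9.72 TPM) and Mest (6.30 TPM) formed the next group, followed by Plagl1 (4.01 TPM), Igf2 (3.60 TPM), Peg3 (1.45 TPM) and Dlk1 (0.25 TPM). In 3' TagSeq reads do not grow with transcript length, so this scale lowers long transcripts such as those of Peg3 and raises short ones. In CPM, which are not divided by length, the means over the 12 uteri were 86.3 for Cdkn1c, 45.7 for Grb10, 35.8 for Ndn, 19.7 for Plagl1, 14.2 for Mest, 12.7 for Peg3, 10.5 for Igf2 and 0.377 for Dlk1. Cdkn1c was first and Dlk1 last on both scales, whereas Plagl1 and Mest, and Peg3 and Igf2, changed places.

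Over the 12 uteri, which share stages and whole-organ composition, Grb10 and Ndn ran most closely together (Pearson r of log2 CPM 0.94, n = 12), followed by Mest with Ndn (0.83) and with Grb10 (0.81). Igf2 ran with Peg3 (0.73) and with Mest (0.69). Cdkn1c stood at -0.20 with Grb10, -0.17 with Ndn and -0.04 with Mest, and had its highest value with Plagl1 (0.60). These coefficients are descriptions of 12 libraries.

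Among 9432 other genes with a mean of at least 10 CPM, those most like Grb10 were Lyar, a nucleolar protein gene, Hspe1, a mitochondrial chaperonin gene, and Lsm7, an RNA-binding protein gene (r = 0.956, 0.953 and 0.949 over 12 uteri), and 324 genes had r above 0.8 with it. The genes most like Ndn were Prmt5, an arginine methyltransferase gene, the histone gene H2afx, and Dpm3 (0.941, 0.923 and 0.918), with 199 genes above 0.8. For Mest they were the nucleosome assembly gene Nap1l1, Rcn1 and Psip1 (0.943, 0.940 and 0.933), with 173 above 0.8. For Cdkn1c they were the carboxypeptidase gene Cpe, Dpysl3 and the tetraspanin gene Tspan9 (0.943, 0.913 and 0.911), with 87 above 0.8. No gene named as most like one of the 4 members was named for another.

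The IGF2 pathway was described by a list of 20 ligands, receptors, binding proteins and mRNA-binding proteins, of which 17 were tested and 10 passed the F test, against 23.2% of all genes. From proestrus to estrus 7 of the 17 rose and 2 fell, against 9.67% and 7.46% of all genes. From estrus to diestrus 3 rose and 6 fell, against 9.72% and 13% of all genes. Without proestrus replicate 1, 5 genes of the list were called from proestrus to estrus. Igf1, the ligand related to Igf2, was lowest in estrus, at 118, 82.9 and 88.8 CPM in its 3 uteri, against 423, 311 and 579 CPM in proestrus and 556, 750 and 665 CPM in diestrus. The metestrus uteri lay apart, with 194, 270 and 739 CPM in replicates 5, 6 and 7. Igf1 changed by -2.18 ± 0.40 from proestrus to estrus on the log2 scale and stood 2.77 ± 0.41 higher in diestrus than in estrus (SE; edgeR adjusted p = 0.00335 and 0.000461), the directions of Grb10. With counts scaled from TPM the fall into estrus was not called (edgeR adjusted p = 0.127).

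Igf1r, the receptor through which both ligands signal, ran the other way. It had 56.5, 58.2 and 66.5 CPM in proestrus, 203, 244 and 186 CPM in estrus, 121, 74.5 and 167 CPM in metestrus and 64.8, 75.6 and 74.1 CPM in diestrus. All estrus uteri were above all others. Of the 12052 genes tested, 2518 had estrus wholly above proestrus, 1728 above metestrus and 2695 above diestrus. The log2 fold change of Igf1r was 1.80 ± 0.23 from proestrus to estrus and -1.56 ± 0.23 from estrus to diestrus (SE; edgeR adjusted p = 0.000434 and 0.000392). Igf2r, an imprinted gene whose product takes up and degrades IGF2, had 90.7, 86.3 and 85.8 CPM in proestrus, 184, 207 and 188 CPM in estrus, 178, 97.2 and 134 CPM in metestrus and 107, 95.4 and 131 CPM in diestrus. It rose by 1.14 ± 0.19 into estrus and was lower in diestrus than in estrus, at -0.80 ± 0.19 (SE; edgeR adjusted p = 0.00193 and 0.00784). Igf2bp2, which binds Igf2 mRNA, had means of 32.7 ± 11.7, 46.4 ± 4.12, 25.3 ± 4.61 and 16.3 ± 6.26 CPM from proestrus to diestrus (SD, n = 3), and was lower in diestrus than in estrus, at -1.52 ± 0.28 (log2, SE; edgeR adjusted p = 0.00206). Stc2, whose product blocks the protease that frees IGF from its binding proteins, was also highest in estrus, at 59.9 ± 4.69 CPM against 11.8 ± 2.03 CPM in diestrus (SD, n = 3; edgeR adjusted p = 1.57e-05). Igfbp4, an IGF binding protein gene, was lowest in estrus, at 596 ± 54.3 CPM against 1850 ± 362 CPM in diestrus (SD, n = 3; edgeR adjusted p = 0.000136).

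**Figure D3:**
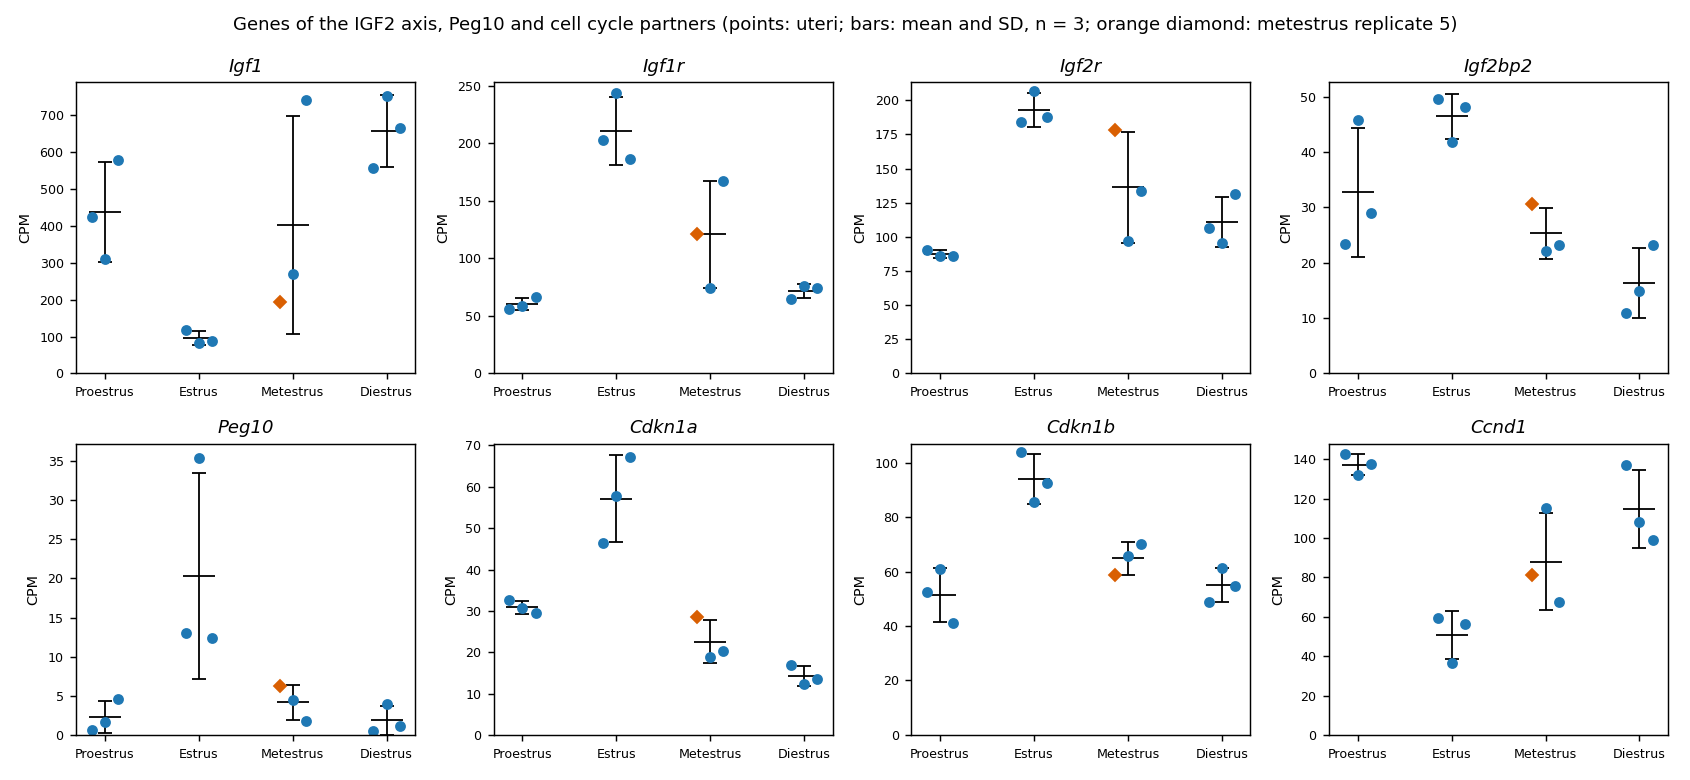
CPM by stage of genes of the IGF2 pathway, the imprinted gene Peg10 and cell cycle genes, with points for uteri, mean and SD of 3 as bars and metestrus replicate 5 as an orange diamond. Igf1 and Ccnd1 are lowest in estrus, whereas Igf1r, Igf2r, Peg10, Cdkn1a and Cdkn1b are highest there.

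Of 52 other imprinted genes, 47 had values, 26 were tested and 6 passed the F test, namely Igf2r, Peg10, Osbpl5, H13, Snrpn and Slc22a3. That is close to the 23.2% of all genes. From proestrus to estrus 5 of the 26 rose and 0 fell, against 9.67% and 7.46% of all genes, the 5 being Igf2r, Slc22a3, Kcnq1, Osbpl5 and Peg10, where Grb10 fell. Between diestrus and estrus 4 were higher in diestrus (Snrpn, Asb4, Commd1 and Atp10a) and 4 lower (Igf2r, Osbpl5, Peg10 and H13), against 9.72% and 13% of all genes, the latter near the share of the list. The 5 became 3 without proestrus replicate 3 and 2 without estrus replicate 4, and the 8 became 4 or 5 without any of the 3 estrus or 3 diestrus uteri. Snrpn, Slc22a3, Kcnq1, Asb4, Commd1 and Atp10a are named here after their values were seen. Peg10, a retrotransposon-derived gene needed for the placenta, stood at 12.99, 35.5 and 12.4 CPM in estrus, against 0.570, 1.62 and 4.57 CPM in proestrus and 0.499, 3.95 and 1.13 CPM in diestrus. It rose by 3.09 ± 0.69 on the log2 scale into estrus (SE; edgeR adjusted p = 0.00851), a call lost without estrus replicate 4 (adjusted p = 0.0570). Osbpl5, a lipid transfer protein gene in the cluster of Cdkn1c, rose by 0.84 ± 0.19 into estrus (SE; edgeR adjusted p = 0.00871), as Cdkn1c did. H13, a signal peptide peptidase gene, was lower in diestrus than in estrus, at -0.49 ± 0.12 (log2, SE; edgeR adjusted p = 0.0108), a call lost without diestrus replicate 3 (adjusted p = 0.0569) and with no filter on low counts (adjusted p = 0.0593). With each sample left out in turn, H13 missed the F test threshold 8 times of 12 (edgeR adjusted p up to 0.126).

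The relatives of Cdkn1c were taken from a list of 15 CDK inhibitors, cyclins and kinases, of which 14 were tested and 6 passed the F test, against 23.2% of all genes. Cdkn1a, which encodes p21, had means of 30.9 ± 1.55, 57.2 ± 10.5, 22.6 ± 5.19 and 14.3 ± 2.38 CPM from proestrus to diestrus (SD, n = 3). Like Cdkn1c it rose into estrus, by 0.89 ± 0.19 on the log2 scale (SE; edgeR adjusted p = 0.00751), but it was lower in diestrus than in estrus, at -2.00 ± 0.21 (edgeR adjusted p = 4.44e-05), where Cdkn1c differed by 0.37 ± 0.37 (edgeR adjusted p = 0.513). Cdkn1b, which encodes p27, rose by 0.87 ± 0.16 into estrus and was lower in diestrus than in estrus, at -0.77 ± 0.16 (SE; edgeR adjusted p = 0.00332 and 0.00375). Cdkn2b, an inhibitor of CDK4 and CDK6, had 10.9 ± 3.08 CPM in estrus and 0.496 ± 0.494 CPM in diestrus (SD, n = 3; edgeR adjusted p = 0.000905). Ccnd1, the gene for cyclin D1, fell by 1.43 ± 0.22 into estrus and was 1.18 ± 0.22 higher in diestrus than in estrus (SE; edgeR adjusted p = 0.00113 and 0.00191). The 3 inhibitors that changed were thus high in estrus and low in diestrus, whereas Cdkn1c was high in both.

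Most proliferation genes fell into estrus, as Grb10 did: of 18 listed and tested, 12 fell and 0 rose from proestrus to estrus, and 9 were higher and 0 lower in diestrus than in estrus, against 7.46% and 9.72% of all genes (5 genes in the second comparison without estrus replicate 5). The replication genes Mcm3, Mcm5, Pcna and Tyms fell into estrus, with log2 fold changes of -2.51 ± 0.23, -1.96 ± 0.33, -1.28 ± 0.18 and -1.503 ± 0.25 (SE; edgeR adjusted p = 6.74e-05, 0.0021, 0.000701 and 0.00196). In proestrus, where Cdkn1c was lowest, Mcm3 stood at 34.0 ± 1.76 CPM, its highest stage mean (SD, n = 3). From diestrus, where Cdkn1c was highest, to proestrus 1 of the 18 rose and 0 fell, against 4.62% and 3.91% of all genes. Of 12 genes that establish or keep imprints, 11 were tested and 3 passed the F test, near the 23.2% of all genes. The 3 were lower in estrus than in proestrus. Hells and Uhrf1, which act in maintenance of DNA methylation at replication, had log2 fold changes of -2.74 ± 0.40 and -2.97 ± 0.58 there (SE; edgeR adjusted p = 0.000946 and 0.00458), and Trim28, the corepressor that works with ZFP57, fell by 0.46 ± 0.13 (edgeR adjusted p = 0.025), a call lost without proestrus replicate 1 or estrus replicate 3 or 4 (adjusted p up to 0.103). With each sample left out in turn, Trim28 missed the F test threshold 9 times of 12 (edgeR adjusted p up to 0.150). Of 15 genes of Dlk1 and Notch signalling 9 were tested, and only Hes1, a Notch target, passed the F test, against 23.2% of all genes. Hes1 had 132 ± 35.5 CPM in proestrus and 56.5 ± 11.8 CPM in diestrus (SD, n = 3; edgeR adjusted p = 0.0028).

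The hormonal setting of the stages was described with 10 estrogen-responsive genes, of which 9 passed the F test, against 23.2% of all genes. Padi1, Lcn2, Muc1 and Sprr2f were each lower in diestrus than in estrus, with log2 fold changes of -5.35 ± 0.37, -7.19 ± 0.96, -2.83 ± 0.42 and -4.61 ± 0.74 (SE; edgeR adjusted p = 3.08e-06, 0.000236, 0.000461 and 0.00081). The list was high in proestrus as well: 7 of the 10 were higher and 0 lower in proestrus than in diestrus, against 4.62% and 3.91% of all genes. From proestrus to estrus 2 rose and 1 fell, against 9.67% and 7.46% of all genes. The median log2 difference over the 10 genes was 1.27 from proestrus to estrus and -4.81 from estrus to diestrus. Grb10, Ndn and Mest had their lowest means in estrus and their highest in diestrus, and a relation to the list was not tested. Cdkn1c was lowest in proestrus, where Padi1 was at 136 ± 29.7 CPM against 3.76 ± 0.834 CPM in diestrus (SD, n = 3). Padi1 was also higher in estrus than in diestrus, as given above, and there Cdkn1c was at 91.0 ± 7.83 CPM (SD, n = 3). A relation of Cdkn1c to the list was not tested.

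In a whole organ, fewer cells of a type and less RNA per cell cannot be told apart, so marker levels are given beside the members. The 12 stroma markers summed to 11148 to 11669 CPM in estrus, where Grb10, Ndn and Mest were lowest, against 13933 to 14168 CPM in proestrus and 9794 to 13450 CPM in diestrus. The 9 smooth muscle markers summed to 8985 to 11552 CPM in estrus and to 6800 to 7200 CPM in diestrus. The 10 epithelium markers summed to 1435 to 1781 CPM in estrus and to 521 to 743 CPM in diestrus. The stroma sums of estrus and diestrus overlapped, and those of muscle and epithelium did not. The stroma sum did not stand for its single genes. In diestrus 4 of the 12 were higher and 1 lower than in estrus, against 9.72% and 13% of all genes. In proestrus, where the sum was higher than in diestrus, 0 of the 12 were higher and 5 lower, against 4.62% and 3.91% of all genes. The 10 leukocyte markers were lowest in proestrus, at 195 to 231 CPM, where Cdkn1c was lowest, and summed to 533 to 650 CPM in estrus and 285 to 449 CPM in diestrus. The 6 pericyte markers were likewise lowest in proestrus, at 249 to 271 CPM, against 341 to 371 CPM in estrus, 389 to 405 CPM in metestrus and 408 to 468 CPM in diestrus. Proestrus overlapped with no other stage in that sum, and 1 of the 6 passed the F test, against 23.2% of all genes. The part of these cell types in the stage differences of Grb10, Ndn, Mest and Cdkn1c was not tested. In metestrus replicate 5, where stroma markers stood at 7355 CPM, Igf2, Peg3, Mest, Grb10 and Ndn were the lowest and Cdkn1c and Plagl1 the highest of the 3 metestrus uteri, and the part of stroma in that was not tested either. Endothelium markers summed to 1351 to 2103 CPM over all uteri, and none of the 8 passed the F test, against 23.2% of all genes. Tested markers passed it in 6 of 12 cases for stroma and 6 of 9 for smooth muscle. For epithelium it was 9 of 9 and for leukocytes 7 of 8, all above that share. Summed markers of mesothelium ran from 59.5 to 116 CPM, of adipocytes from 77.6 to 267 CPM, of ovary from 31.6 to 93.0 CPM, of oviduct from 51.9 to 137 CPM, of skeletal muscle from 37.6 to 225 CPM and of nerve from 18.8 to 37.6 CPM. Skeletal muscle sums were highest in diestrus, at 143 to 225 CPM, against at most 104, 137 and 117 CPM in proestrus, estrus and metestrus. Oviduct sums were lowest in diestrus, at 51.9 to 88.7 CPM. Tested markers of skeletal muscle passed the F test in 3 of 4 cases, of oviduct in 3 of 3, of ovary in 1 of 3 and of mesothelium in 1 of 4. For adipocytes and nerve it was 0, beside 23.2% of all genes. The part of these tissues in the members' differences was not tested.

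**Figure D4:**
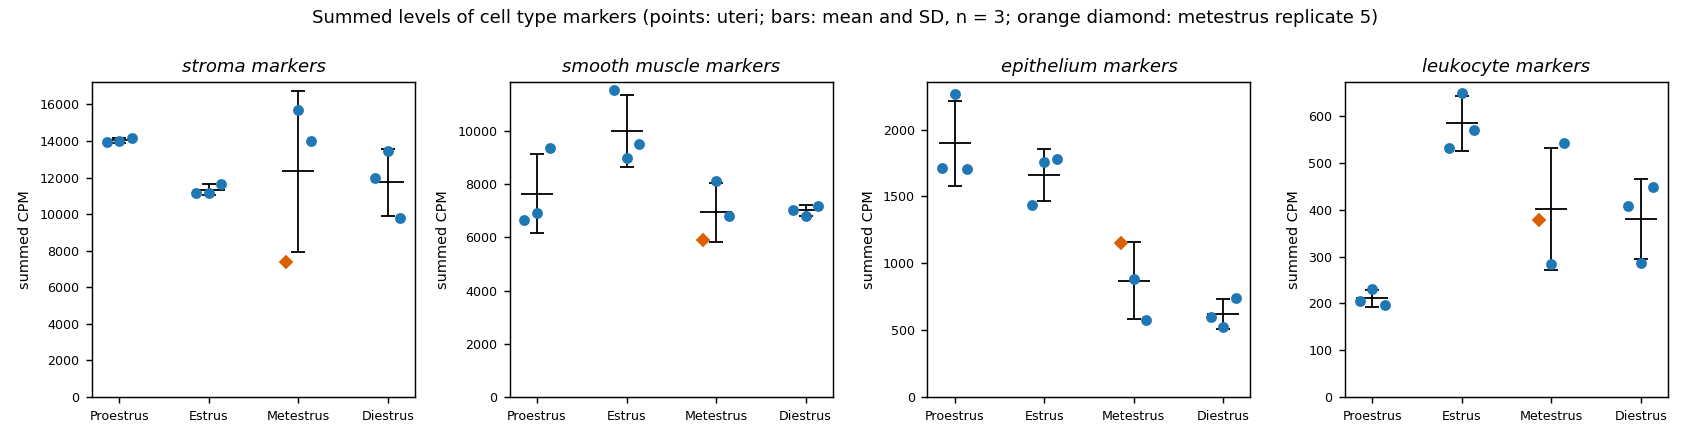
Summed CPM of marker genes of 4 cell classes in each uterus (points) by stage, with mean and SD of 3 uteri as bars. Metestrus replicate 5, the orange diamond, has the lowest stroma sum, 7355 CPM, and leukocyte sums are lowest in proestrus.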

How the data were processed

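The 12 libraries were one per uterus, 3 per estrous stage, made from 100 ng of total RNA by 3' TagSeq per the labels' protocols. The authors deposited one table per sample with 119414 transcripts, giving estimated counts, TPM and effective lengths in bases, per the file headers. FastQC, kallisto and DESeq2 appear, without roles, in the submitters' processing notes; transcript set and strand use are not given in the sources used here. The deposited estimated counts were not whole in 67.9% of values above 0; the deposited TPM were checked to be estimated counts over effective length, scaled to a common total.

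Identifiers of 116640 transcripts (97.7%) matched GENCODE M21 (GRCm38), which need not be the authors' annotation; the others, 0.619% to 0.774% of counts, were left out. Of lincRNA genes, 32 of 5854 had a matched transcript, and H19 and Meg3 had none of their 7 and 11. Estimated counts were summed per gene (35896 genes) and rounded to whole numbers. After filterByExpr by stage, 12052 genes were fitted in edgeR 4.0.16 (R 4.3.3) with TMM factors, one quasi-likelihood model of stage over all 12 samples, an F test and 6 two-sided contrasts, Benjamini-Hochberg adjustment over all genes and a threshold of 0.05. Standard errors are the absolute log2 fold change over the square root of F. Log2 CPM used a prior count of 2. The biological coefficient of variation was 20.6%. The code was tested on simulated data. Libraries of a stage differed by more than sampling noise, with chi-square values of at least 3.24 per degree of freedom.

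The members and gene lists were chosen with earlier results of these data known. Named were all members, up to 4 genes per list with the smallest F test p among those passing, Igf1r, Igf2r and Igf2bp2 always, and the 3 genes most correlated with each member that passed. Alternatives, reported in the closing section, were DESeq2 size factors, library totals, no filter, DESeq2 1.42.0, limma-voom (limma 3.58.1), counts scaled from TPM, fits to the stages compared, a replicate block and leaving out each sample.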

Additional observations from a re-analysis of the deposited data

How the results depend on the processing

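The F test and 6 comparisons of each of the 7 members were refitted under the alternatives, 910 refits in all. Of 227 refits of results called with all samples, 194 kept the call, 33 lost it and 0 reversed. Of 683 refits of results not called, 14 gained a call and 16 turned direction, 0 of these 16 being called. The comparisons that turned ranged, with each sample left out, from -0.60 to 0.54 (log2) for Cdkn1c from estrus to metestrus, from -0.14 to 0.97 for Cdkn1c, -0.10 to 0.17 for Plagl1 and -0.47 to 0.033 for Igf2 from metestrus to diestrus, from -0.41 to 0.063 for Peg3 from proestrus to estrus and from -0.17 to 0.075 for Ndn from proestrus to metestrus. Cdkn1c from estrus to metestrus was 0.20 with all samples, -0.60 without metestrus replicate 5 and -0.017 with limma-voom, which gave -0.0050 for Plagl1 from metestrus to diestrus. In the fit to the 2 stages compared, Ndn was 0.0029 from proestrus to metestrus. With each sample left out in turn, the number of members called was 2 to 5 in the F test (4 with all samples, 2 without estrus replicate 3 or 4 or diestrus replicate 4), 1 to 3 from proestrus to estrus (2), 0 to 4 from estrus to metestrus (1), 0 to 2 from diestrus to proestrus (1), 0 to 1 between metestrus and proestrus (1), 0 to 0 between metestrus and diestrus (0) and 3 to 3 between diestrus and estrus (3). From estrus to metestrus 2 members were called without a filter on low counts, Peg3 being the other, and 0 with counts scaled from TPM, where the filter left 4 members to test. In the fit to the 2 stages compared, 2 members were called from diestrus to proestrus (Cdkn1c and Mest) and 0 between metestrus and proestrus. That last count was also 0 with limma-voom and with counts scaled from TPM, while the cause was not tested. Ndn was called from proestrus to estrus as well, which gave 3 members, with library totals, in the fit to those 2 stages, and without proestrus replicate 2, metestrus replicate 6 or 7 or diestrus replicate 4.

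Estrus and diestrus share the replicate numbers 3, 4 and 5. Deviations of same-numbered uteri correlated at -0.043, 0.013 and -0.017, and those of differently numbered uteri at -0.030 to 0.044. Pairing by number was thus not seen, but these correlations cannot exclude it. A fit of these stages with a replicate block called 3 members, Grb10, Ndn and Mest, as without it. Other pairs of stages share fewer than 2 numbers. For the genes of the other lists the same alternatives were run after seeing the data. Of 2184 such refits, 1898 stayed on their side of the threshold, 275 lost the call, 11 gained it and 0 reversed. Counts called in the F test ranged, with each sample left out, from 2 to 7 for the other imprinted genes (at most 3 without proestrus replicate 2 or 3, diestrus replicate 3 or 4 or any estrus uterus), 8 to 12 for the IGF2 pathway, 1 to 4 for imprint maintenance (1 without proestrus replicate 3) and 1 to 3 for Notch signalling (3 without metestrus replicate 5). With counts scaled from TPM, 1 of the other imprinted genes and 5 of the IGF2 pathway passed. The scaling moved the median of all genes by at most 0.07 (log2). Depth limits Dlk1, Igf2, Peg3 and Mest most.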
